A study of Mus musculus with 6 samples.

Results

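Potassium channel genes were described in nuclei of the mouse pons and medulla, in animals exposed to chronic intermittent hypoxia (CIH) and in animals kept in normoxia. The genes were chosen by symbol: subunits of the Kcna, Kcnab, Kcnb, Kcnc, Kcnd, Kcne, Kcnf, Kcng, Kcnh, Kcnip, Kcnj, Kcnk, Kcnma, Kcnmb, Kcnn, Kcnq, Kcns, Kcnt, Kcnu and Kcnv subfamilies, without Kcnk2, Kcnk3, Kcnk9, Kcnj10, Kcnj16 and Kcnh8. This gave 92 of the 32285 genes counted, 87 of them protein coding and 5 noncoding RNAs named after a channel gene (Kcnd3os, Kcnq1ot1, Kcnmb4os1, Kcnmb4os2 and Kcnab3os).

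The study sequenced RNA of sorted single nuclei (10x Genomics 3' chemistry) from frozen brainstem. The CIH group was 3 libraries of wild-type male C57BL6/J mice that, between postnatal days 22 and 43, were given nitrogen for 60 seconds until oxygen fell to 4.5 to 5% and were then returned to 21% oxygen within 5 minutes, 80 times over 8 hours of each of 21 days. The normoxia group was 3 libraries of male mice of the same strain, genotype and ages kept in room air, and all mice were weaned on postnatal day 21. The number of mice per library is not given, nor whether the libraries of a group came from different animals, so p-values measure the spread between libraries.

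Potassium channels let potassium leave the cell and so return the membrane toward its resting potential. Voltage-gated channels shape the spike and the pause after it, M-type and ether-a-go-go channels restrain repetitive firing, calcium-activated channels produce the afterhyperpolarization, and inward rectifiers and two-pore-domain channels set the resting potential. In the brainstem they tune the firing of respiratory and autonomic neurons, and in glia they carry potassium uptake and hold the resting potential.

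The 6 matrices held 43836 barcodes, of which 40139 passed a floor of 500 detected genes and a ceiling of 5% mitochondrial UMIs (unique molecular identifiers, each standing for 1 captured RNA molecule). Libraries CIH 1 and normoxia 2 shared 1563 barcodes, while the other pairs of libraries shared 3 to 38. Of these, 1555 carried in normoxia 2 a median 7.93-fold fewer UMIs than in CIH 1 (5th to 95th percentile 7.20 to 8.75), and their profiles correlated with those of the same barcode in CIH 1 (median 0.549) more than with another barcode's (0.313). The 1156 of them among the 6615 kept nuclei of normoxia 2 were left out, which left 38983 nuclei, and the comparisons were repeated with them. The libraries held 26733243 to 40750363 UMIs in CIH and 30260893 to 46754345 in normoxia, and CIH 3 had the highest median mitochondrial share, 0.366% against 0.0624 to 0.0955% in the other 5.

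Nuclei were put into classes by the marker genes detected in them, none of which is a potassium channel gene. A class is thus a range of marker counts: 7.08% of oligodendrocytes and 44.7% of granule neurons sat exactly at the lowest count their class accepts. The 8 classes with at least 20 nuclei in every library held 21826 nuclei, namely 1448 excitatory neurons, 2621 inhibitory neurons, 3558 granule neurons, 10819 oligodendrocytes, 342 oligodendrocyte precursors, 887 astrocytes, 1398 microglia and 753 endothelial cells. No class was given to 16444 nuclei (42.2%), among them 5102 (13.1%) that met the gates of 2 classes and were kept out as possible doublets. Granule neurons, defined by markers of the cerebellar granule layer in tissue labelled as pons and medulla, amounted to 19.8, 23.0 and 4.40% of nuclei in CIH 1 to 3, against 7.68, 8.13 and 4.25% in normoxia 1 to 3.

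Levels are given as CPM, the UMIs of a gene divided by all UMIs of a class in a library and scaled to a fixed total. They are compared between classes within a gene and not between genes, since counts were not scaled to gene length. Free RNA from broken cells adds to every droplet. Its size was estimated from 8 neuronal genes outside the marker lists, among them Syt1, Snhg11, Meg3, Celf4, Nrg3, Rbfox1 and Kif5c. These stood at a median 5.45% of their highest neuronal level in oligodendrocytes, 5.80% in astrocytes, 9.16% in microglia, 12.1% in endothelial cells and 17.2% in oligodendrocyte precursors. Of the 51 potassium channel genes with enough counts for a fit across classes, 11 exceeded the highest of these 8 genes (19.7%) in oligodendrocytes, 28 (35.0%) in oligodendrocyte precursors, 28 (15.6%) in astrocytes, 15 (24.6%) in microglia and 6 (37.6%) in endothelial cells. In precursors the 8 genes ranged from 4.91% (Syt1) to 35.0% (Nrg3). Whether non-neuronal classes express some of the 8 themselves was not tested, so a limit can lie above free RNA. Levels at or below these limits are read as background. Median UMIs per nucleus ran, over the 6 libraries, between 7612 and 10748 in excitatory neurons and between 1115 and 1909 in endothelial cells.

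Potassium channel genes were mainly genes of neurons. Between the 3 neuronal and the 5 non-neuronal classes, 41 of the 51 tested genes were higher in neurons (edgeR quasi-likelihood test, adjusted p under 0.05 and a log2 difference of at least 1), against 21.0% of all 14455 genes tested. Kcnk13, a two-pore-domain channel gene, was the 1 member lower in neurons by this rule, at a log2 difference of -2.35 (SE 0.51, adjusted p = 4.2e-05), against 11.7% of all genes. The median difference was 2.12 on the log2 scale for the 51 genes and 0.04 for all genes. The other 41 members had too few counts for this fit. They include Kcnk16, which had no UMI, and 18 others with under 100 UMIs in the whole study, among them Kcna3, Kcna5, Kcna7, Kcna10, Kcnj1, Kcnj4, Kcnj15, Kcnk18, Kcnn4, Kcne1 and Kcne3.

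By class, the tested members called higher than the mean of the other 7 classes numbered 38 in excitatory neurons (74.5% of the 51, against 18.2% of all genes), 33 in inhibitory neurons (64.7%, against 17.7%), 29 in granule neurons (56.9%, against 13.8%), 7 in oligodendrocytes (13.7%, against 13.9%), 11 in oligodendrocyte precursors (21.6%, against 9.86%), 10 in astrocytes (19.6%, against 15.0%), 6 in microglia (11.8%, against 16.2%) and 2 in endothelial cells (3.92%, against 14.6%). In oligodendrocytes, microglia and endothelial cells the share of members called higher was thus no larger than that of all genes. Called lower were 1 in excitatory neurons (1.96% of the 51, against 8.75% of all genes), 2 in inhibitory neurons (3.92%, against 8.68%), 2 in granule neurons (3.92%, against 8.43%), 35 in oligodendrocytes (68.6%, against 18.0%), 4 in oligodendrocyte precursors (7.84%, against 5.81%), 19 in astrocytes (37.3%, against 9.98%), 34 in microglia (66.7%, against 20.6%) and 33 in endothelial cells (64.7%, against 16.2%). Granule neurons held the highest mean level of 16 members, excitatory neurons of 9, inhibitory neurons of 7, astrocytes of 6, oligodendrocytes of 5, microglia of 4, precursors of 3 and endothelial cells of 1.

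**Figure D1:**
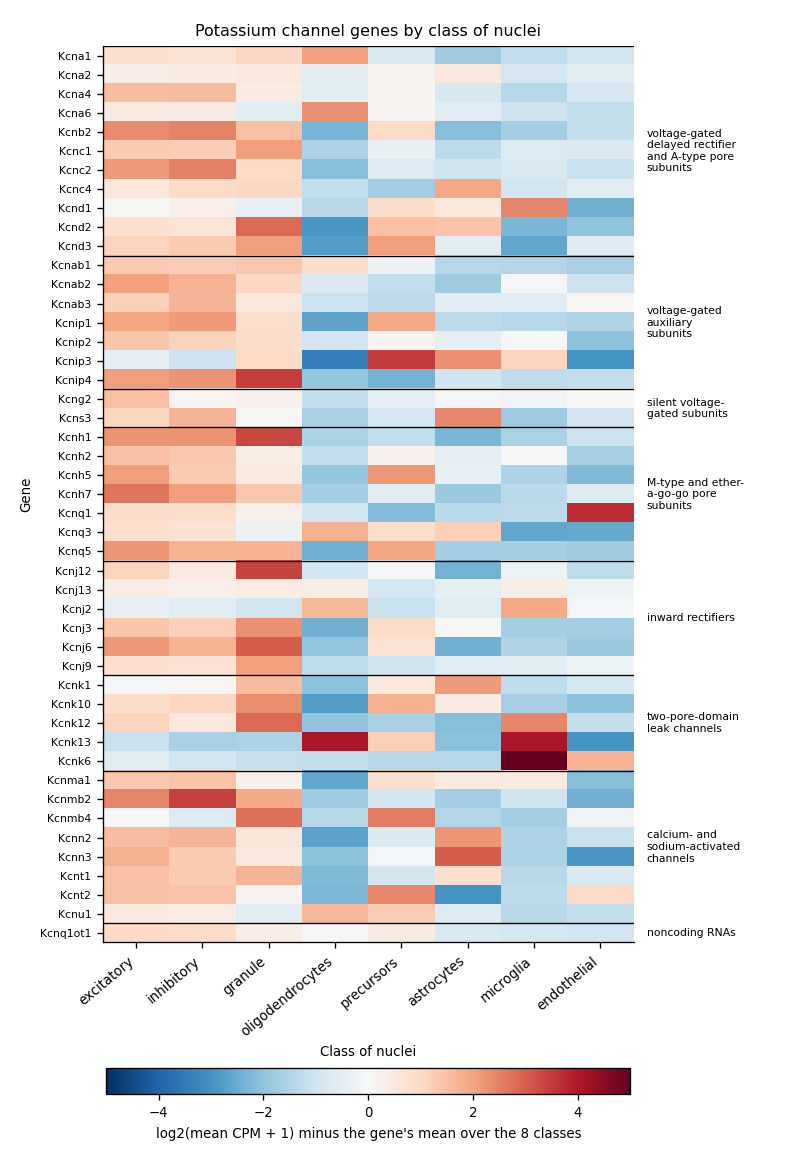
Mean level of 47 of the 51 tested potassium channel genes in 8 classes of nuclei, as log2(mean CPM over 6 libraries + 1) minus the gene's own mean over the classes (colour scale), with genes grouped by role. Values above the gene's mean gather in the 3 neuronal columns, while Kcnk13, Kcnk6, Kcnq1 and Kcnip3 stand out in non-neuronal columns.

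Among the voltage-gated pore subunits of the Kcna, Kcnb, Kcnc and Kcnd subfamilies, 13 of 17 were tested. Of these, 10 were higher in neuronal than in non-neuronal classes, against 21.0% of all genes. Kcnb2, a delayed rectifier of cell bodies and dendrites, averaged 830.2 ± 61.8 CPM in inhibitory and 755 ± 82.3 CPM in excitatory neurons (SD, n = 6 libraries here and below), against 28.1 CPM in oligodendrocytes. Kcnc2, of the fast delayed rectifiers that allow high firing rates, averaged 516 ± 42.5 CPM in inhibitory and 397 ± 66.2 CPM in excitatory neurons. Its relative Kcnc1 was highest in granule neurons, at 255 ± 34.8 CPM. Kcnd2, a pore of the transient A-type current, averaged 9674 ± 1892 CPM in granule neurons (7951 to 12720.4), 3892 ± 429.5 in oligodendrocyte precursors, 3662 ± 522 in astrocytes and 2363 ± 184 in excitatory neurons. It was called higher in each of these classes, with log2 differences from the other classes of 3.34, 1.66, 1.66 and 1.05 in that order. Kcnd3, which encodes another A-type pore, averaged 330.3 ± 38.8 CPM in granule neurons and 327 ± 85.0 CPM in oligodendrocyte precursors, and these ranges overlapped.

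The Kcna subfamily, known for channels of axons, included genes highest in oligodendrocytes. Kcna1 averaged 362 ± 26.6 CPM there (330.0 to 409), against 179 ± 12.4 CPM in granule and 157 ± 25.6 CPM in excitatory neurons, with a log2 difference in oligodendrocytes of 2.57 (SE 0.07, adjusted p = 1.9e-43). Kcna6 averaged 151 ± 8.63 CPM in oligodendrocytes (139 to 161) and 42.7 ± 7.54 CPM in excitatory neurons, with a log2 difference in oligodendrocytes of 2.92 (SE 0.08, adjusted p = 6.9e-43). In every library both genes were higher in oligodendrocytes than in any other of the 8 classes. Kcna2, which pairs with Kcna1 beside the node of Ranvier, showed no such order: it averaged 61.0 ± 8.07 CPM in granule neurons, 60.7 ± 18.1 in astrocytes, 53.2 ± 5.47 in excitatory neurons and 28.6 ± 5.12 in oligodendrocytes. Kcnd1, an A-type pore gene, stood at 28.0 ± 2.55 CPM in microglia, against at most 8.94 CPM in the other classes, a log2 difference of 3.42 (SE 0.35, adjusted p = 4.1e-13).

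Auxiliary subunits alter the surface level and gating of these pores. Of the 7 tested (of 12 in all), 6 were higher in neuronal classes, against 21.0% of all genes. Kcnip4, a calcium-binding partner of the Kcnd pores, averaged 11551 ± 1448 CPM in granule neurons (8765 to 12674), against 4942 ± 327 CPM in inhibitory and 4458 ± 975 CPM in excitatory neurons. Kcnip1 of the same subfamily averaged 298 ± 35.1 CPM in inhibitory and 268 ± 31.1 CPM in excitatory neurons. Kcnip3 was highest in oligodendrocyte precursors, at 684 ± 168 CPM (432 to 862), and lowest in oligodendrocytes, at 4.74 CPM. It averaged 297 ± 68.6 CPM in astrocytes, 130.1 ± 23.5 in microglia, 121 ± 24.2 in granule neurons, 44.4 ± 18.6 in excitatory and 29.3 ± 7.29 in inhibitory neurons. The difference in precursors was 3.87 (SE 0.14, adjusted p = 4.6e-35) on the log2 scale. Kcnab1, a beta subunit of Kcna channels, averaged 283 ± 24.3 CPM in granule neurons, 278 ± 33.1 in excitatory neurons and 208 ± 21.4 in oligodendrocytes, and was called higher in all 3. Its relative Kcnab2 was highest in excitatory neurons, at 52.5 ± 6.13 CPM.

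Of the 10 electrically silent subunits, which form no channel alone but modify Kcnb pores, Kcns3 and Kcng2 were tested. Kcns3 averaged 36.4 ± 11.8 CPM in astrocytes (19.5 to 48.8), 21.9 ± 6.32 in inhibitory and 13.9 ± 8.24 in excitatory neurons, and its ranges in astrocytes and inhibitory neurons overlapped. The astrocyte difference was 3.03 (SE 0.26, adjusted p = 4.6e-16) on the log2 scale. Kcng2 averaged 9.52 ± 3.32 CPM in excitatory and 3.04 ± 1.26 CPM in inhibitory neurons.

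The Kcnq genes encode M-type channels and their relatives, and the Kcnh genes encode ether-a-go-go channels. Of the 9 tested (12 in all), 8 were higher in neuronal classes, against 21.0% of all genes. Kcnq3, a subunit of the neuronal M-channel, was highest in oligodendrocytes, at 1319 ± 132 CPM (1104 to 1451), followed by 875 ± 142 in astrocytes, 710.4 ± 100.2 in precursors and 684 ± 33.7 in excitatory neurons. The oligodendrocyte difference was 2.30 (SE 0.07, adjusted p = 8.0e-39) on the log2 scale, and oligodendrocytes ranked first in all 6 libraries. Kcnq5 averaged 666 ± 79.4 CPM in excitatory neurons and 568 ± 78.9 CPM in oligodendrocyte precursors.

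Kcnq1, known from epithelia and heart, stood at 56.1 ± 38.2 CPM in endothelial cells (20.1 to 122), against at most 7.55 CPM in any other class, a log2 difference of 4.65 (SE 0.37, adjusted p = 4.5e-17). Reads of Kcnq1 and of the antisense Kcnq1ot1 inside it can be told apart only by strand, and whether the counting used strand is not stated. Among the ether-a-go-go genes, Kcnh7 averaged 911 ± 99.4 CPM in excitatory and 612 ± 103 CPM in inhibitory neurons. Kcnh1 averaged 179 ± 49.1 CPM in granule neurons. Kcnh5 averaged 165 ± 44.6 CPM in oligodendrocyte precursors and 157 ± 14.3 CPM in excitatory neurons.

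**Figure D2:**
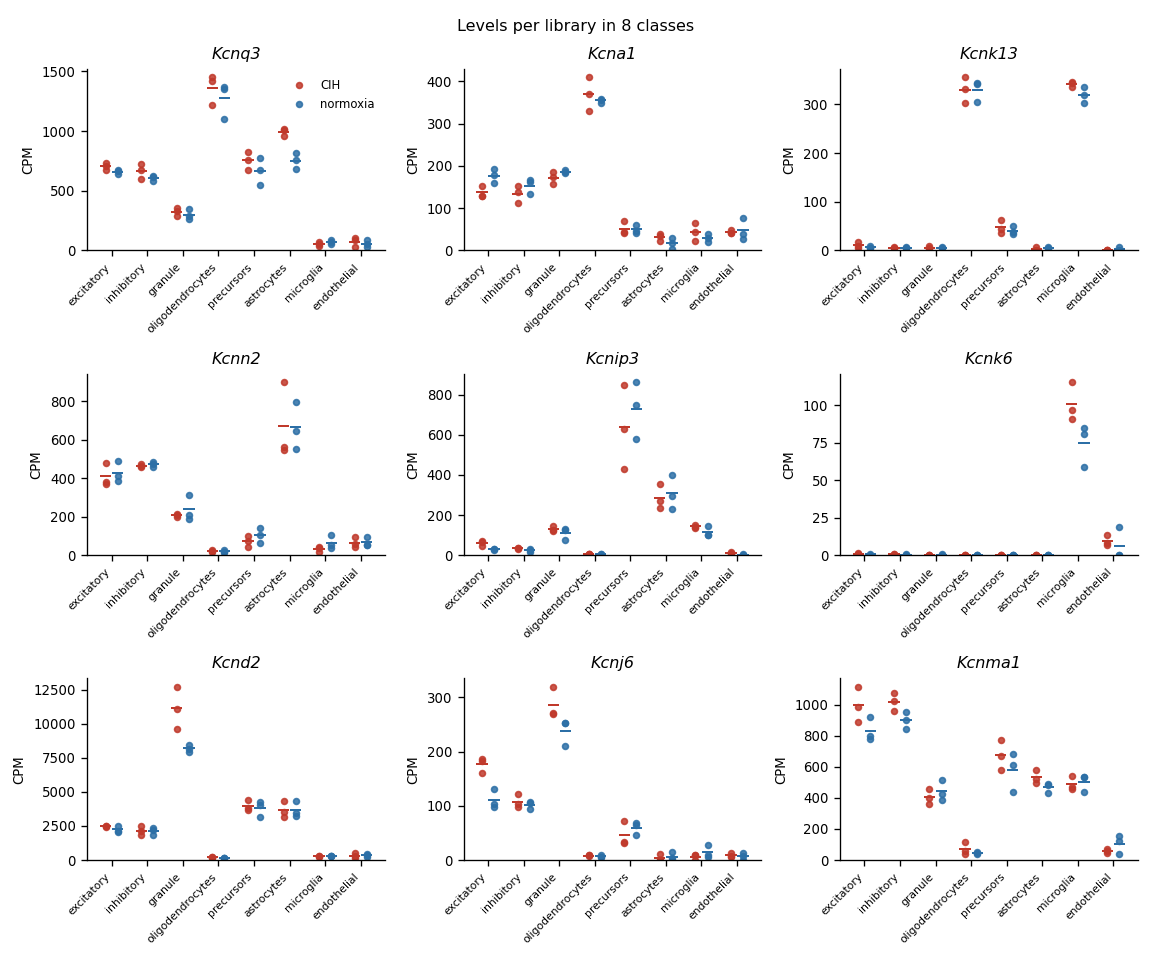
CPM of 9 potassium channel genes in 8 classes of nuclei; each point is a library, with CIH left of normoxia, and each bar the mean of 3 libraries. Oligodendrocytes lie above the other classes for Kcnq3 and Kcna1, oligodendrocytes and microglia share Kcnk13, and Kcnip3 is highest in oligodendrocyte precursors.

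Inward rectifiers pass potassium best near rest, and the Kcnj3, Kcnj6 and Kcnj9 products form channels opened by G proteins downstream of inhibitory transmitters. All 3 were highest in granule neurons, with Kcnj3 at 744 ± 118 CPM, Kcnj6 at 263 ± 35.1 CPM and Kcnj9 at 46.2 ± 7.32 CPM. Excitatory neurons held 395 ± 56.8 CPM of Kcnj3 and 144 ± 38.7 CPM of Kcnj6. Kcnj12, a strong inward rectifier, averaged 52.5 ± 17.7 CPM in granule neurons and 10.2 ± 2.20 CPM in excitatory neurons, with a granule difference of 4.77 (SE 0.20, adjusted p = 5.1e-30) on the log2 scale. Kcnj2, another strong inward rectifier, was called higher in microglia (14.9 ± 7.74 CPM) and in oligodendrocytes (12.1 ± 2.43 CPM), against at most 2.08 CPM in the neuronal classes. Kcnj13 lay between 4.61 and 12.5 CPM in the 8 classes. Kcnj11, the pore of an ATP-sensitive channel, had 300 UMIs over the 8 classes together and was not in this fit.

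Two-pore-domain channels carry leak current. Kcnk13 averaged 330.3 ± 16.4 CPM in microglia (303 to 346) and 330.0 ± 21.6 CPM in oligodendrocytes (303 to 355), against 43.7 ± 11.1 CPM in oligodendrocyte precursors and at most 8.18 CPM in neuronal classes. The microglial and oligodendrocyte ranges overlapped, and both classes were called higher, by 4.58 (SE 0.12) in microglia and 5.08 (SE 0.08) in oligodendrocytes on the log2 scale. Kcnk6 averaged 87.9 ± 18.7 CPM in microglia (58.8 to 115), 7.87 ± 7.48 CPM in endothelial cells and at most 0.740 CPM in the other 6 classes, a microglial difference of 7.75 (SE 0.27, adjusted p = 2.4e-33) on the log2 scale. Kcnk12 averaged 90.4 ± 15.5 CPM in granule neurons and 70.6 ± 5.15 CPM in microglia, and these ranges overlapped. Kcnk1 was highest in astrocytes, at 141 ± 32.5 CPM against 95.8 ± 15.8 CPM in granule neurons. Kcnk10 averaged 305 ± 34.8 CPM in granule neurons and 210.1 ± 60.0 CPM in oligodendrocyte precursors.

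Calcium- and sodium-activated channels link calcium entry and spikes to hyperpolarization. Of the 8 tested (12 in all), 7 were higher in neuronal classes, against 21.0% of all genes. Kcnma1, the large-conductance pore, averaged 959.6 ± 82.8 CPM in inhibitory and 914 ± 125 CPM in excitatory neurons. It was also above the free-RNA limit in precursors (625 ± 114 CPM), astrocytes (499.9 ± 48.4 CPM) and microglia (496 ± 45.8 CPM), and stood at 58.1 ± 29.5 CPM in oligodendrocytes. Its beta subunits parted by class. Kcnmb2, which inactivates the channel, averaged 314 ± 46.1 CPM in inhibitory and 161 ± 28.1 CPM in excitatory neurons, while Kcnmb4 averaged 67.7 ± 9.67 CPM in granule neurons and 61.5 ± 26.4 CPM in precursors. Of the small-conductance pores, Kcnn2 averaged 667 ± 148 CPM in astrocytes, 469 ± 11.6 in inhibitory and 419.6 ± 51.7 in excitatory neurons. Kcnn3 averaged 96.5 ± 14.3 CPM in astrocytes and 39.3 ± 6.35 CPM in excitatory neurons. The sodium-activated Kcnt1 averaged 168 ± 17.1 CPM in granule and 140.5 ± 16.2 CPM in excitatory neurons, and Kcnt2 averaged 245 ± 27.6 CPM in oligodendrocyte precursors and 130.1 ± 21.5 CPM in excitatory neurons.

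Vascular, meningeal and small neuronal classes had too few nuclei for a fit, so their UMIs were pooled over libraries, and the 95% exact Poisson intervals cover counting error only. Kcnj8, the pore of the vascular ATP-sensitive channel, stood at 270.2 CPM in 183 mural nuclei (73 UMIs, interval 212 to 339.8), against at most 2.30 CPM in the 8 larger classes, with library values between 0 and 600.2 CPM. Kcne4 gave 4 UMIs there, or 14.8 CPM (4.03 to 37.9). Kcnk5, a leak channel closed by acid, stood in 330 fibroblast nuclei at 56.4 CPM in CIH (38.0 to 80.5), against 105 CPM in normoxia (66.8 to 158), with library values between 26.9 and 164 CPM, while oligodendrocytes of all libraries averaged 6.91 CPM. Kcnt2 stood at 376 CPM in fibroblasts (333 to 422), with 375.9 CPM in CIH and 375.7 CPM in normoxia. Kcnn3 stood in 62 serotonergic nuclei at 321 CPM in CIH (245 to 414), against 169 CPM in normoxia (129 to 218), with library values between 117 and 416 CPM. Kcnb2 stood in 63 cholinergic nuclei at 1576 CPM in CIH (1436 to 1727), against 1091 CPM in normoxia (1003 to 1184), with library values between 918 and 1606 CPM. Single libraries held 1 to 18 cholinergic, 4 to 22 serotonergic, 9 to 122 mural and 17 to 128 fibroblast nuclei. Intervals of pooled UMIs do not measure the spread between libraries, so intervals that lie apart do not show a group difference. The difference between the groups was not tested in these classes. These pairs of gene and class were chosen after their values were seen.

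Few potassium channel genes were called between excitatory and inhibitory neurons, where a call also needs a log2 difference of at least 1. In excitatory neurons 2 of 51 members (3.92%) were called higher, against 1.53% of all genes. Kcng2 was one of them, at a log2 difference of 1.71 (SE 0.29, adjusted p = 6.0e-06). None of the 51 was called lower, against 0.581% of all genes. Kcnmb2, at -0.94 (SE 0.11, adjusted p = 1.4e-10), and Kcnh5, at 0.80 (SE 0.08, adjusted p = 7.3e-12), passed the adjusted p but not the log2 difference of 1. The median difference was 0.13 for the 51 members and -0.01 for all genes. Without CIH 3, 1 member was called in place of 2, against 2.00% of all genes.

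Across the 8 classes, the members whose mean log2 level most resembled that of Kcnma1 were Kcnh2 (Pearson r 0.894) and Kcnip2 (0.842). Those most like Kcnq3 were Kcnu1 (0.818) and Kcna6 (0.765), and those most like Kcnd2 were Kcnk10 (0.969) and Kcnj3 (0.943). These are descriptions over 8 points that share libraries, depth and free RNA.

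Genes for partners outside the Kcn symbols and other ion channels were set beside the members. Of 17 partner genes 13 were tested. In neuronal classes 9 were called higher, against 21.0% of all genes, and 1 lower, against 11.7%. The median log2 difference of the 13 was 2.28, against 0.04 for all genes. Dpp6 and Dpp10, which associate with Kcnd pores, and Cntnap2, which gathers Kcna channels along axons, were among the 9, at 3.39, 3.33 and 4.25 in that order. Lgi1, a secreted protein of Kcna1 complexes, averaged 732 CPM in astrocytes and 126 CPM in granule neurons, and Pias3 was the gene called lower. Of 11 sodium, calcium and pacemaker channel genes, 10 were higher in neuronal classes (median 2.82), against 21.0% of all genes. The other was Hcn2, at 402 CPM in oligodendrocytes and at most 64.8 CPM in neuronal classes.

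Between CIH and normoxia, no potassium channel gene passed an adjusted p of 0.05 in any of the 8 classes or in all nuclei together (edgeR quasi-likelihood test, Benjamini-Hochberg adjustment over all genes tested in a class). In excitatory neurons 0 of 53 members and 0% of all 12566 genes were called, 12 members (22.6%) had an unadjusted p under 0.05 against 7.66% of all genes, and DESeq2 called 2, against 0.135% of all genes. In inhibitory neurons 0 of 57 members were called against 0.00725% of all genes (1 gene), 5 members (8.77%) had an unadjusted p under 0.05 against 6.91%, and DESeq2 called 1, against 0.0652% of all genes. In granule neurons 0 of 47 members and 0% of all genes were called, 5 members (10.6%) had an unadjusted p under 0.05 against 5.54%, and DESeq2 called 0. In oligodendrocytes 0 of 44 members and 0% of all genes were called, 3 members (6.82%) had an unadjusted p under 0.05 against 5.61%, and DESeq2 called 0.

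In the smaller glial and vascular classes, 0 members and 0% of all genes were called by edgeR, and DESeq2 called 0 members. At an unadjusted p under 0.05 there were 1 of 16 members (6.25%, against 3.56% of genes) in oligodendrocyte precursors, 4 of 20 (20%, against 5.22%) in astrocytes, 3 of 19 (15.8%, against 5.43%) in microglia and 0 of 5 (against 6.09%) in endothelial cells. Libraries held 24 to 146 precursor, 49 to 508 astrocyte and 34 to 425 endothelial nuclei, which limits what could be detected there.

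**Figure D3:**
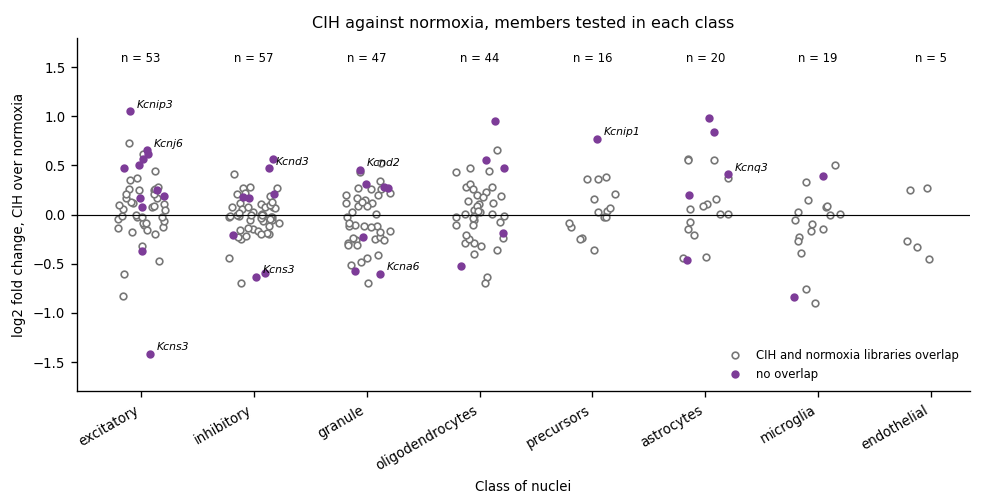
log2 fold change, CIH over normoxia, of each potassium channel gene tested in a class of nuclei; filled points are genes whose 3 CIH and 3 normoxia libraries do not overlap in CPM. No point passed the adjusted p of 0.05, and in excitatory neurons Kcnip3 lies at 1.05 and Kcns3 at -1.41. Lack of overlap between 3 and 3 libraries corresponds to p = 0.1 in an exact permutation test.

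Kcnip3 had the smallest p of the members in excitatory neurons. It stood at 63.5, 69.1 and 48.0 CPM in CIH, against 29.6, 29.0 and 27.4 CPM in normoxia. Every CIH library lay above every normoxia library, and the log2 fold change was 1.05 (SE 0.15, adjusted p = 0.091). Parentheses after the values of both groups below give the log2 fold change of CIH over normoxia first. In inhibitory neurons Kcnip3 stood at 36.1, 35.4 and 33.3 CPM in CIH, against 29.1, 24.7 and 17.2 CPM in normoxia (0.57, SE 0.17, adjusted p = 0.567), again without overlap. Its product binds the Kcnd pores and is also known as a calcium-dependent repressor of transcription.

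Kcnd3 encodes a pore that Kcnip proteins bind. In inhibitory neurons it stood at 229, 233 and 201 CPM in CIH, against 153, 154 and 166 CPM in normoxia, with every CIH library above every normoxia library (0.47, SE 0.08, adjusted p = 0.151). In excitatory neurons it stood at 222, 212 and 159 CPM in CIH, against 135, 146 and 130.0 CPM in normoxia, again without overlap (0.51, SE 0.12, adjusted p = 0.333). CIH 3 was the lowest CIH library in both classes.

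Kcns3 had the most negative log2 fold change among the members in excitatory neurons, where it had 47 UMIs in CIH and 173 in normoxia. It stood there at 6.11, 8.86 and 7.42 CPM in CIH, against 28.0, 16.4 and 16.5 CPM in normoxia (-1.41, SE 0.28, adjusted p = 0.183). DESeq2 estimated -1.435 for Kcns3 in excitatory neurons but gave it no adjusted p, so it could not be among the members called there by DESeq2. In inhibitory neurons it stood at 14.8, 19.4 and 17.2 CPM in CIH, against 32.4, 22.6 and 25.0 CPM in normoxia (-0.63, SE 0.18, adjusted p = 0.527). Every CIH library lay below every normoxia library in both classes.

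Kcnj6 stood in excitatory neurons at 161, 183 and 186 CPM in CIH, against 103, 98.2 and 131 CPM in normoxia, without overlap (0.66, SE 0.12, adjusted p = 0.183). In inhibitory neurons it stood at 103, 97.9 and 122 CPM in CIH, against 105, 93.9 and 108 CPM in normoxia, and the groups overlapped. The CIH effect was compared directly between the excitatory and inhibitory classes with limma: 0 of 53 members and 0% of all 12789 genes passed, and 6 members had an unadjusted p under 0.05, against 6.11% of all genes. The effect in excitatory minus that in inhibitory neurons was -0.75 (SE 0.15, adjusted p = 0.798) for Kcns3 and 0.61 (SE 0.15, adjusted p = 0.798) for Kcnj6.

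**Figure D4:**
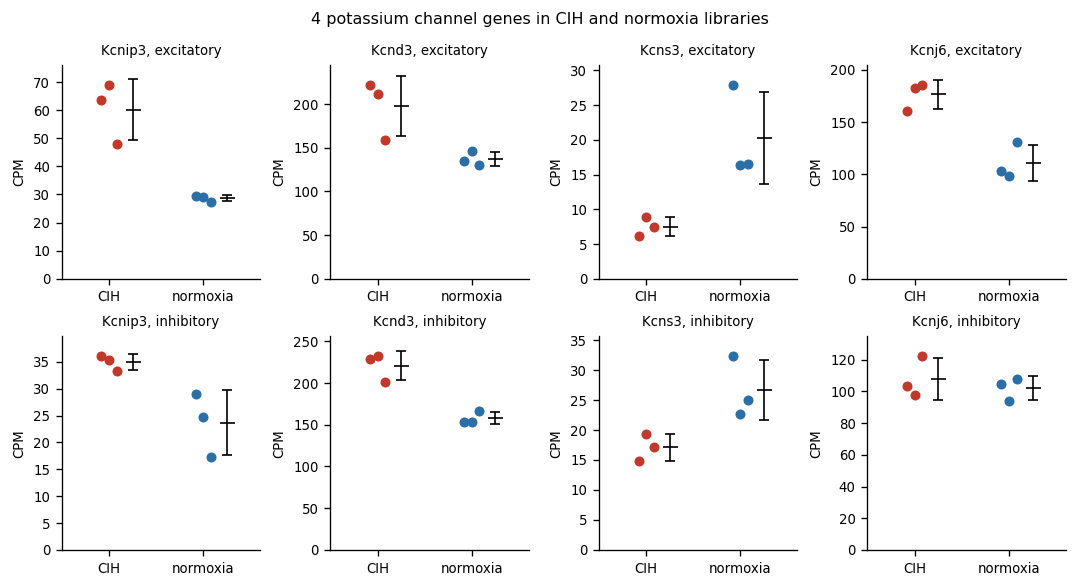
CPM of Kcnip3, Kcnd3, Kcns3 and Kcnj6 per library in excitatory and inhibitory neurons, CIH left of normoxia, with the mean and SD of 3 libraries. In both classes Kcnip3 and Kcnd3 are higher and Kcns3 is lower in every CIH library than in any normoxia library, while Kcnj6 overlaps in inhibitory neurons.

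Single libraries decided calls. Without CIH 3, Kcnip3 (1.19, adjusted p = 0.0015), Kcnd3 (0.64, adjusted p = 0.015) and Kcnh3 (3.61, adjusted p = 0.031) passed in excitatory neurons, against 0.384% of all genes. Kcnd3 (0.52, adjusted p = 0.036) passed in inhibitory neurons without it, against 0.0775% of all genes. Without normoxia 3, Kcnj6 (0.81, adjusted p = 0.023) and Kcnip3 (1.03, adjusted p = 0.041) passed in excitatory neurons, against 0.211% of all genes. Kcnh3, an ether-a-go-go gene, had only 146 UMIs over all kept nuclei of the study. In excitatory neurons Kcnh3 stood at 8.55, 4.43 and 0.436 CPM in CIH, against 0.400, 0.349 and 0.590 CPM in normoxia. CIH 1 and CIH 2 were thus high and CIH 3 was not.

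Kcnip3, Kcnd3 and Kcnj6 have higher levels in granule neurons than in excitatory and inhibitory neurons. The 7 granule markers together reached 121 to 184 CPM in excitatory neurons of CIH, against 114 to 169 CPM in normoxia, and 150.1 to 186 CPM in inhibitory neurons of CIH, against 127 to 173 CPM in normoxia. At most 1 of the 7 was at 0 in a library of these classes. In granule neurons they summed to 2441 to 2838 CPM in CIH and 2072 to 2517 CPM in normoxia. Excitatory nuclei with no granule marker detected were a selection chosen after seeing the data. In them the log2 fold change was 1.05 for Kcnip3 (adjusted p = 0.612), 0.22 for Kcnd3, 0.41 for Kcnj6 and -1.57 for Kcns3. In inhibitory nuclei selected the same way it was 0.54 for Kcnip3, 0.32 for Kcnd3 and -0.40 for Kcns3. Without this selection the inhibitory values were 0.57, 0.47 and -0.63 in that order. The 8 markers of oligodendrocyte precursors, the class where Kcnip3 is highest, reached 108 to 165 CPM in excitatory neurons of CIH, against 96.4 to 112 CPM in normoxia, with up to 4 of the 8 at 0 in a library. In precursors themselves they reached 6089 to 8285 CPM in CIH and 5932 to 6181 CPM in normoxia. The 12 astrocyte markers reached 70.0 to 144 CPM in inhibitory neurons of CIH, against 58.4 to 69.0 CPM in normoxia. The part of precursor and astrocyte RNA in the neuronal differences was not tested.

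Kcnip3 (ENSMUSG00000079056) spans chr2:127456498-127522094, Kcnd3 (ENSMUSG00000040896) spans chr3:105452330-105674002 and Kcns3 (ENSMUSG00000043673) spans chr12:11090202-11151056 (GENCODE M21, mm10). The 250 bases before a RefSeq start (GRCm38.p6) are shown for these genes because their groups did not overlap in either neuron class. Where RefSeq gives several starts, the most upstream window without an exon of a protein-coding gene is shown. Capitals mark the core of the hypoxia response element, searched as ACGTG and GCGTG on both strands.
Kcnip3 (chr2:127522095-127522344, minus strand): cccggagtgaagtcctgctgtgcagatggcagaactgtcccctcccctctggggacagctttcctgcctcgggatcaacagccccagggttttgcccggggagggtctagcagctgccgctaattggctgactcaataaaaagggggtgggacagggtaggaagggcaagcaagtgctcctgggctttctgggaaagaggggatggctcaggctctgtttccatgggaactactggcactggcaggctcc
Kcnd3 (chr3:105451640-105451889, plus strand): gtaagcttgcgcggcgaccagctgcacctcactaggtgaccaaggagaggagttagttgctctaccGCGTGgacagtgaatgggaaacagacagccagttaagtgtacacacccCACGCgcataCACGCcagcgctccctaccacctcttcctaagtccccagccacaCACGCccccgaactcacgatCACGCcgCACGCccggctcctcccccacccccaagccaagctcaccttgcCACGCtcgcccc
Kcns3 (chr12:11150374-11150623, minus strand): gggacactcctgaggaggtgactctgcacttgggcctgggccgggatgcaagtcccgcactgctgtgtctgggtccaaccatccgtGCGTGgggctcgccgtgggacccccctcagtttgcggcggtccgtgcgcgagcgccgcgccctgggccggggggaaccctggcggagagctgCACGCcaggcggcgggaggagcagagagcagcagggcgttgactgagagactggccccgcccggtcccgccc
The Kcnd3 window held 7 matches, the Kcns3 window 2 and the Kcnip3 window 0. Of all 32851 such windows 38.6% held at least 1 match, as did 37.2% of the 86 windows of the 67 members in the table, and a match is a description of the letters only.

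Kcnd2 had the smallest p of the members in granule neurons. It stood at 9659.6, 11071 and 12720.4 CPM in CIH, against 7951, 8186 and 8457 CPM in normoxia (0.46, SE 0.14, adjusted p = 0.846). Kcna6 stood at 15.0, 15.9 and 17.9 CPM in CIH, against 25.0, 23.7 and 24.6 CPM in normoxia (-0.60, SE 0.18, adjusted p = 0.846). Neither gene overlapped between the groups. Kcnt2 followed and averaged 41.9 ± 9.77 CPM in CIH and 60.5 ± 15.8 CPM in normoxia (-0.51, SE 0.22, adjusted p = 0.846), and its groups overlapped. The 12 astrocyte markers reached 96.6 to 200.5 CPM in granule neurons of CIH, against 78.0 to 96.9 CPM in normoxia, and the precursor markers 454 to 573 CPM in CIH, against 346 to 468 CPM in normoxia, and their part in these values was not tested.

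In oligodendrocytes Kcnd2 had the smallest p among the members (0.48, SE 0.14, adjusted p = 0.703), followed by Kcnt1 (-0.52, SE 0.22, adjusted p = 0.875) and Kcnh7 (-0.40, SE 0.17, adjusted p = 0.875). All 3 stood in oligodendrocytes at background levels, at 1.84, 6.04 and 4.74% of their highest neuronal level in that order. Of the members highest in oligodendrocytes, Kcnq3 averaged 1365 ± 124 CPM in CIH and 1274 ± 147 CPM in normoxia (0.08, SE 0.11, adjusted p = 0.940), and these groups overlapped. Kcnk13 averaged 330.1 ± 26.2 CPM in CIH and 329.9 ± 21.9 CPM in normoxia (-0.01, SE 0.09, adjusted p = 0.991).

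In oligodendrocyte precursors Kcnip1 stood at 289.7, 298 and 347 CPM in CIH, against 203, 176 and 179.8 CPM in normoxia, without overlap (0.77, SE 0.24, adjusted p = 0.997). Kcnb2 (0.37, SE 0.24, adjusted p = 0.997) and Kcnd3 (0.37, SE 0.27, adjusted p = 0.997) followed there, and their groups overlapped. In astrocytes Kcnq3 stood at 1009, 959 and 1022 CPM in CIH, against 759, 683 and 817 CPM in normoxia (0.41, SE 0.14, adjusted p = 0.798), and Kcnab1 at 48.8, 58.4 and 51.0 CPM in CIH, against 28.7, 27.9 and 30.4 CPM in normoxia (0.84, SE 0.35, adjusted p = 0.882). Neither gene overlapped between the groups in astrocytes. Kcnc2 followed there (0.99, SE 0.40, adjusted p = 0.882), with 92 UMIs in CIH and 23 in normoxia. Kcnab1 stood in astrocytes at 14.4% and Kcnc2 at 8.61% of their highest neuronal level, both within the background, while Kcnq3 was above it. In microglia Kcnb2 stood at 25.5, 31.2 and 38.5 CPM in CIH, against 50.0, 63.0 and 56.0 CPM in normoxia, without overlap (-0.84, SE 0.31, adjusted p = 0.905), at 5.30% of its highest neuronal level and so within the background. Kcnh7 (-0.75, SE 0.32, adjusted p = 0.908) and Kcnn2 (-0.90, SE 0.41, adjusted p = 0.908) followed in microglia, with overlap, at 6.04% for Kcnh7 and 10.5% for Kcnn2 of their highest neuronal level and so within the background too. The 8 genes used to estimate free neuronal RNA summed in microglia to 2140.0 to 2462 CPM in CIH, against 2642 to 3627 CPM in normoxia. These sums did not overlap between the groups, and the part of free RNA in the values above was not tested. In endothelial cells the 5 tested members had log2 fold changes between -0.45 and 0.27. The smallest p there belonged to Kcnq1ot1 (-0.33, SE 0.30, adjusted p = 0.920), Kcnt2 (-0.45, SE 0.43, adjusted p = 0.920) and Kcnip4 (0.25, SE 0.28, adjusted p = 0.922), and all 3 overlapped between the groups. Kcnq1ot1 at 26.1% and Kcnip4 at 3.87% of their highest neuronal level lay within the endothelial background.

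Over all kept nuclei, 0 of 77 members were called against 0.00509% of all genes (1 gene), and 16 members (20.8%) had an unadjusted p under 0.05, against 11.1%. In such a sum fewer cells of a type and less RNA per cell cannot be told apart. The smallest p was that of Kcns3, at 8.29, 8.49 and 11.1 CPM in CIH, against 16.2, 15.8 and 16.4 CPM in normoxia (-0.80, SE 0.14, adjusted p = 0.239). Kcnip3 stood at 71.1, 79.0 and 58.4 CPM in CIH, against 44.4, 46.5 and 32.5 CPM in normoxia (0.75, SE 0.15, adjusted p = 0.276). Kcna4, a transient voltage-gated pore gene, stood at 10.3, 9.20 and 9.01 CPM in CIH, against 12.1, 13.6 and 13.5 CPM in normoxia (-0.47, SE 0.11, adjusted p = 0.307). None of these 3 overlapped between the groups. DESeq2 called 5 members (Kcns3, Kcnip3, Kcnd2, Kcnmb4 and Kcna4), against 1.27% of all genes.

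Without CIH 3, the fit over all nuclei called 11 of 78 members, 10 of them higher, against 2.05% of all genes, and Kcns3 lower (-0.96, adjusted p = 0.0046), against 0.693%. Of the 11, 8 have their highest level in granule neurons (Kcnd2, Kcnmb4, Kcnip4, Kcnk12, Kcnk10, Kcnj12, Kcnh1 and Kcnd3), as do 16 of the 51 members fitted across classes. Granule neurons made up 19.8 and 23.0% of the nuclei of the remaining CIH libraries, and the part of this share in the calls was not tested. Kcnmb4 stood at 23.5 and 26.1 CPM in CIH 1 and CIH 2, against 9.13 to 11.7 CPM in normoxia.

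By role, 8 of 10 M-type and ether-a-go-go genes in excitatory neurons had a positive log2 fold change (median 0.18), as did 8 of 13 voltage-gated pore genes (median 0.11), 5 of 7 auxiliary genes (median 0.17), 5 of 8 calcium- and sodium-activated genes (median 0.16), 2 of 5 inward rectifiers (median -0.01), 2 of 5 silent subunits (median -0.01) and 1 of 4 two-pore-domain genes (median -0.08), against a median of 0.01 over all genes. In inhibitory neurons 2 of 10 M-type and ether-a-go-go genes were positive (median -0.06), 6 of 13 voltage-gated pores (-0.0019), 6 of 7 auxiliary genes (0.07), 6 of 10 calcium- and sodium-activated genes (0.04), 2 of 6 inward rectifiers (-0.10), 2 of 5 silent subunits (-0.15) and 1 of 5 two-pore-domain genes (-0.01). These are counts of signs, and 0 of these genes passed the adjusted p. Among the partner genes Dpp10 in microglia averaged 109 ± 32.0 CPM in CIH and 236 ± 10.5 CPM in normoxia (-1.12, SE 0.19, adjusted p = 0.084). Its mean over all libraries was 172 CPM in microglia, against 3058 CPM in excitatory neurons, which lies within the microglial background of 24.6%. Other neuronal genes had negative log2 fold changes in microglia too, with Cntnap2 averaging 399 ± 106 CPM in CIH and 621 ± 61.7 CPM in normoxia (-0.65, SE 0.17, adjusted p = 0.467) and 7 of 7 sodium, calcium and pacemaker channel genes negative (median -0.47), 0 of them past the adjusted p. Dpp6 in granule neurons averaged 3012 ± 627 CPM in CIH and 1864 ± 478 CPM in normoxia (0.70, SE 0.19, adjusted p = 0.846).

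Of the UMIs of excitatory neurons, the members together gave 1.75, 1.67 and 1.62% in CIH, against 1.41, 1.36 and 1.54% in normoxia. In granule neurons they gave 2.85, 3.05 and 3.23% in CIH, against 2.59, 2.71 and 2.48% in normoxia. The groups did not overlap in either class, and in inhibitory neurons they did, at 1.51, 1.52 and 1.66% in CIH, against 1.49, 1.51 and 1.61% in normoxia. Of excitatory UMIs, Kcnip4 alone gave 0.582, 0.519 and 0.461% in CIH, against 0.373, 0.313 and 0.427% in normoxia (log2 fold change 0.47, SE 0.13, adjusted p = 0.416). Of granule UMIs, Kcnd2 alone gave 0.966, 1.11 and 1.27% in CIH, against 0.795, 0.819 and 0.846% in normoxia. The other 90 members together gave 0.909 ± 0.0101% of excitatory UMIs in CIH and 0.840 ± 0.0206% in normoxia (SD, n = 3), without overlap. Of granule UMIs the other 90 members gave 0.691 ± 0.0131% in CIH and 0.705 ± 0.0510% in normoxia, with overlap.

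**Figure D5:**
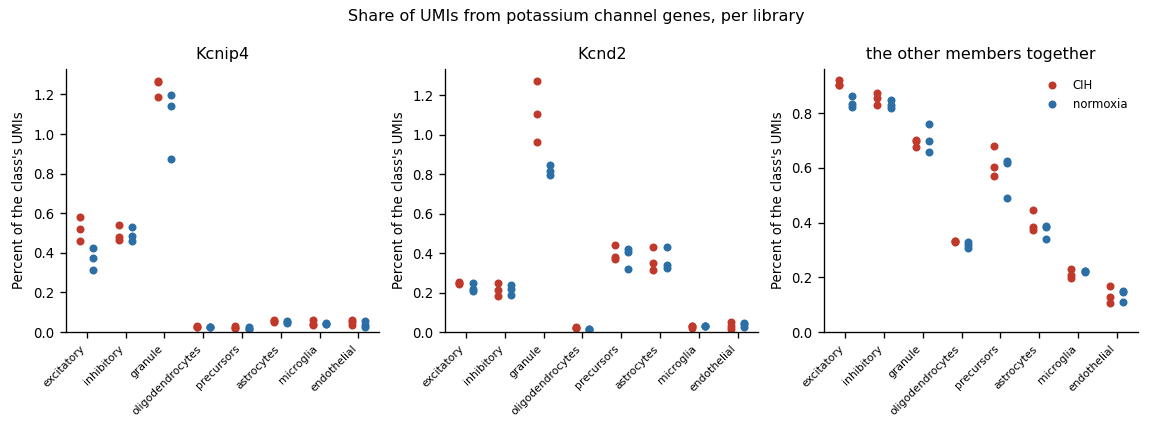
Percent of a class's UMIs from Kcnip4, from Kcnd2 and from the other 90 potassium channel genes together; each point is a library, CIH left of normoxia. Kcnip4 and the other 90 genes together each separate the groups in excitatory neurons, and Kcnd2 separates them in granule neurons and oligodendrocytes. All 3 shares overlap in microglia and endothelial cells.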

How the data were processed

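The authors deposited whole-number UMI counts per gene and barcode, 1 filtered matrix per library, made with Cell Ranger 6.1.2 per the file headers, while the submitters' processing notes name Cell Ranger 3.1.0, Seurat 4.0 and mm10. Whether introns were counted and whether strand was used is not given in the sources used here. The members and lists were chosen with earlier results of these data known. Nuclei passing a floor of 500 genes and a ceiling of 5% mitochondrial UMIs were kept, classed by detected markers and summed per library and class, so libraries and not nuclei are the replicates. Sums were tested with edgeR 4.0.16 (quasi-likelihood, TMM scaling, filterByExpr, Benjamini-Hochberg over all genes) in R 4.3.3: CIH against normoxia within a class, and classes against each other with the library as a block. A class difference was called at an adjusted p under 0.05 and a log2 difference of at least 1. The CIH effect in excitatory against inhibitory neurons was fitted with limma 3.58.1 on per-library differences of log2 CPM (prior count 1). With 3 libraries against 3, an exact permutation test cannot go below p = 0.1.

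Named are a set of fixed members, the up to 3 members per class with the largest difference that rank first there in every library, the 3 members of smallest p per class for CIH, members called between excitatory and inhibitory neurons, and the 2 members most like Kcnma1, Kcnq3 and Kcnd2 across classes. Some members that this rule names are not reported here. Alternatives were DESeq2 1.42.0, RLE scaling, a block by replicate number, testing with no filter on low counts, each library left out, a stricter gate, removal of the highest Scrublet scores (scanpy 1.11.5, 0.8% per 1000 barcodes) and stricter nuclei. Keeping the repeated barcodes, using no granule marker and using no scaling were chosen after seeing the data. Deviations of same-numbered libraries from their group means were correlated in 9 sums. Every pair lay over 0.1 in oligodendrocytes (0.148, 0.220 and 0.421) and microglia (0.107, 0.121 and 0.301). In precursors the pairs gave -0.115, -0.205 and 0.129. Differently numbered libraries were not compared, so these values do not show a pairing, and the labels state none. Scripts were tested on simulated data. Tables and figures used Python 3.11.15 with pandas 2.3.3, numpy 2.4.6, matplotlib 3.10.9 and scipy 1.17.1. Promoter windows are from RefSeq (GRCm38.p6).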

Additional observations from a re-analysis of the deposited data

Results flagged for a closer look

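Of the barcodes in normoxia 2, 1555 repeat barcodes of CIH 1 at lower depth. With them kept, 0 members were called in any class, and Kcnip3 in excitatory neurons had 1.03, adjusted p = 0.110.

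The CIH difference of Kcnab1 had opposite signs in oligodendrocytes and astrocytes, 1.03 apart on the log2 scale. In oligodendrocytes it stood at 179.9, 200.2 and 207 CPM in CIH, against 208, 209 and 246 CPM in normoxia (-0.19, SE 0.09, adjusted p = 0.877). In astrocytes, where it had 86 UMIs in CIH and 23 in normoxia, it stood at 48.8, 58.4 and 51.0 CPM in CIH, against 28.7, 27.9 and 30.4 CPM in normoxia (0.84, SE 0.35, adjusted p = 0.882). The astrocyte level was 14.4% of the highest neuronal level and so within the background from free RNA, which reached 15.6%. The difference between the classes was not tested.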

How the results depend on the processing

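Over all settings, 247 of 262 summary counts stayed within 1.5 times their main value. For CIH, where edgeR called 0 members in each class, DESeq2 called 5 in all nuclei, 2 in excitatory and 1 in inhibitory neurons. Without a filter on low counts there were 6 in excitatory neurons (Kcnip3, Kcnj6, Kcns3, Kcnip4, Kcnd3 and Kcnh3, against 0.695% of all genes), 1 in inhibitory (Kcnd3, 0.757%), 1 in granule neurons (Kcnd2, 0.543%) and 1 in microglia (Kcnip1, 0.134%). With the replicate number as a block there was 1 in excitatory neurons (Kcnip3, 1.04, adjusted p = 0.038, against 0.0239% of all genes) and 0 elsewhere. Leaving out each library gave 0 to 11 members in all nuclei (11 without CIH 3), 0 to 3 in excitatory and 0 to 1 in inhibitory neurons, and 0 in the other classes. Between excitatory and inhibitory neurons, 5 in place of 2 members were called with no filter (against 1.97% of all genes). With a library left out there were 1 (without CIH 3) to 3, against 1.92 to 2.11% of all genes. In inhibitory neurons against the other classes, 53 in place of 35 were called with no filter (5903 of 26866 genes in all). The causes were not tested.

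Signs turned for Kcnip3 in inhibitory neurons under a stricter gate (-0.056, adjusted p = 0.992), for Kcnq1ot1 in endothelial cells, which ran between -0.51 (without normoxia 2) and 0.078 (without normoxia 3) with a library left out, and for Kcnip4 in endothelial cells with doublet scores removed (-0.19). RLE scaling moved the median of all genes by -0.165 in oligodendrocytes and 0.109 in endothelial cells, and no scaling by up to 0.287 in endothelial cells. Oligodendrocyte precursors were too few for the stricter gate, and precursors and endothelial cells for the stricter nuclei.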
